A study of Arabidopsis thaliana with 12 samples.

Results

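The Aux/IAA, GH3 and auxin synthesis genes of Arabidopsis thaliana were followed in whole seedlings of tic-2, a mutant of the clock gene TIME FOR COFFEE (TIC), and of the wild type Col-0. They were 40 genes picked by name out of 25729 in the table: 29 Aux/IAA genes (IAA1 to IAA20 and IAA26 to IAA34), 5 GH3 genes (GH3.1, GH3.2, GH3.3, GH3.5 and GH3.6), and 6 genes of auxin synthesis (YUC2, YUC3, YUC5, YUC8, YUC9 and TAA1). All 40 had a row. The 4 groups were tic-2 at postdusk, Col-0 at postdusk, tic-2 at predawn and Col-0 at predawn, with 3 libraries each, lettered A, B and C, which the series calls biological replicates. Seedlings of all groups had the ecotype Col-0, were 10 days old and had grown at 22 °C under LD on MS medium with 3% sucrose. Predawn was ZT 0 and postdusk ZT 12, where ZT counts hours from lights-on. The labels do not give the kind of lesion in tic-2.

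Aux/IAA proteins repress transcription by holding auxin response factors (ARFs) inactive. Auxin glues a short degron of the Aux/IAA protein to the TIR1/AFB receptors, and the repressor is then destroyed. Many Aux/IAA and GH3 genes are themselves switched on by auxin, so the repressors and the GH3 enzymes, which couple the hormone to amino acids, form feedback on the signal. TAA1 makes indole-3-pyruvate from tryptophan and the YUC (YUCCA) enzymes turn that into auxin, which in hypocotyls drives elongation.

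The degron core, a glycine, a tryptophan, a pair of prolines and a valine in a row, was read from the coding bases of the RefSeq genome TAIR10.1. Its codons stood intact in 17 of the 29 Aux/IAA genes. A variant that kept the tryptophan and both prolines stood in 7 (IAA8, IAA10, IAA11, IAA12, IAA13, IAA27 and IAA31), and none was found in 5 (IAA20, IAA30, IAA32, IAA33 and IAA34). The windows below belong to genes on which the results turn, with the 5 core codons in capitals; IAA11 and IAA12 carry the variant.
IAA7 (chr3:8195568-8195606, plus strand): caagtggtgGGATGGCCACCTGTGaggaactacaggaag
IAA14 (chr4:8349469-8349507, minus strand): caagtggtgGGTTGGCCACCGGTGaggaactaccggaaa
IAA17 (chr1:1136938-1136976, plus strand): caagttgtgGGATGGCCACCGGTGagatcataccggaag
IAA16 (chr3:1289721-1289759, minus strand): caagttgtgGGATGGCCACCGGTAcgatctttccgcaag
IAA19 (chr3:5264307-5264345, plus strand): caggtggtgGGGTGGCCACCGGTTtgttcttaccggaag
IAA29 (chr4:15583942-15583980, plus strand): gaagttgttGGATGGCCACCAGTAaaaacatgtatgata
IAA11 (chr4:14143003-14143041, plus strand): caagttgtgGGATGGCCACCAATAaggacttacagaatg
IAA12 (chr1:1241058-1241096, plus strand): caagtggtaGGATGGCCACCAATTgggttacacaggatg

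The 250 bases before each annotated start were searched on both strands for 5 motifs. The G-box CACGTG, bound by PIF factors and other bHLH and bZIP proteins, stood in 5 of the 40 (12.5%; IAA7, IAA19, IAA20, IAA30 and GH3.2), against 6.49% of 27443 promoters. The PBE-box CACATG, another PIF site, stood in 11 (27.5%), against 11.1%. The auxin response element TGTCTC stood in 13 (32.5%), against 10.9%, and its stronger form TGTCGG in 6 (15%), against 4.16%. The evening element AAATATCT of clock-regulated genes stood in 2 (5%; GH3.2 and YUC2), against 4.79%. In IAA3 a pair of PBE-box matches overlap, and each gene was counted with or without a motif. These are matches of letters in this window and not tests of binding. The upstream bases of IAA19, IAA7 and IAA29 are shown because these genes changed most at predawn among the Aux/IAA genes or stood among the most abundant, with matches in capitals. In IAA19 TGTCTC begins 184, 145 and 128 bases before the start, CATGTG (the PBE-box on the other strand) 177 and CACGTG 70. IAA7 holds CACGTG 22 bases before its start, and the window of IAA29 holds none of the 5 motifs.
IAA19 (chr3:5263751-5264000, plus strand): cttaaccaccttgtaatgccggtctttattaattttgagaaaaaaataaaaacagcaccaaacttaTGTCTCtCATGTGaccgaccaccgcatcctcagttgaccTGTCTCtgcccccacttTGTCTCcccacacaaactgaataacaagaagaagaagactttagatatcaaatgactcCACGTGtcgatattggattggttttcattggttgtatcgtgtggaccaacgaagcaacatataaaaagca
IAA7 (chr3:8194356-8194605, plus strand): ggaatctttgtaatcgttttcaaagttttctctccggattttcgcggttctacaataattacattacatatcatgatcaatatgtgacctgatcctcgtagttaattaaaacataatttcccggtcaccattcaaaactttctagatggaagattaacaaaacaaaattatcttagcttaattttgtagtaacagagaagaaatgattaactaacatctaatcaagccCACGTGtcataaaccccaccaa
IAA29 (chr4:15583082-15583331, plus strand): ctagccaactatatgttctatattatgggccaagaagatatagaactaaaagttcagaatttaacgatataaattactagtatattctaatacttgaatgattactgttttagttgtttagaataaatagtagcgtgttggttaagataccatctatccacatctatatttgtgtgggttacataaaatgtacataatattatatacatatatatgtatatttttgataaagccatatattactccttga

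Depth was 19255016 to 21750334 reads per library, recovered from the steps of the FPKM values, and a single read amounts to 0.046 to 0.0519 FPKM for 1 kb of exon. FPKM divides the fragments of a gene by its length and by the size of the library, and levels of different genes are compared on that scale. TIC (AT3G22380) was at 70.9, 62.2 and 105.8 FPKM in tic-2 and 61.9, 57.5 and 63.1 in Col-0 at postdusk, and at 63.9, 70.1 and 98.4 in tic-2 and 52.1, 56.6 and 56.0 in Col-0 at predawn. The tic-2 libraries lettered C were the highest, and TIC was not called at postdusk or predawn (limma adjusted p = 0.175 and 0.084). The morning gene CCA1 averaged 0.748 ± 0.0307 FPKM in Col-0 at postdusk and 259 ± 21.2 at predawn, and the evening gene TOC1 88.5 ± 4.18 at postdusk and 8.72 ± 0.255 at predawn (SD, n = 3), which matches the times in the column names. For the 6 samples titled tic-2 predawn and Col-0 postdusk, the description names the column of the other of these groups. Columns were assigned by their own names, and an exchange of these groups would alter every comparison below. Of 10 root markers, BGLU23 was at 734 to 1422 FPKM and the other 9 summed to 11.24 to 36.3 FPKM in a library. Those 9 summed to 11.97 to 16.4 FPKM in tic-2 and 11.24 to 31.2 in Col-0 at postdusk, and to 24.9 to 36.3 in tic-2 and 18.8 to 28.2 in Col-0 at predawn. The highest Col-0 value at postdusk was that of library B, where CASP1 was at 15.3 FPKM, against 5.20 in A and 4.63 in C. Summed over 10 shoot markers they were 158 to 180 FPKM in tic-2 and 134 to 145 in Col-0 at postdusk, and 131 to 170 in tic-2 and 127 to 143 in Col-0 at predawn. No root or shoot marker was at 0 in a whole group. None of 8 tested root markers was called by genotype. Of 9 tested shoot markers, YAB5 was higher in tic-2 at both times, AS1 higher at postdusk and GL1 lower at postdusk. The part of organ proportions in the results below was not tested, and in whole seedlings fewer cells of a type and less RNA per cell cannot be told apart.

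Aux/IAA transcripts covered the whole range from 0 to 261 FPKM in a library. IAA16 (AT3G04730) was the most abundant over the 12 libraries, with a mean of 146 FPKM, followed by IAA7 (AT3G23050) at 140 and IAA9 (AT5G65670) at 136. IAA8 (AT2G22670) and IAA4 (AT5G43700) came next, with means of 91.8 and 76.8 FPKM. GH3.5 (AT4G27260) and GH3.6 (AT5G54510), with means of 33.7 and 29.7 FPKM, led the GH3 genes. TAA1 (AT1G70560), at 10.6 FPKM, stood above all YUC genes, of which YUC8 (AT4G28720) was at 2.13, YUC2 (AT4G13260) at 2.02, YUC9 (AT1G04180) at 1.90 and YUC3 (AT1G04610) at 1.06 FPKM.

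A total of 9 genes were below 1 FPKM as group means in all 4 groups: IAA6 (AT1G52830), IAA15 (AT1G80390), IAA20 (AT2G46990), IAA31 (AT3G17600), IAA32 (AT2G01200), IAA33 (AT5G57420), IAA34 (AT1G15050), GH3.1 (AT2G14960) and YUC5 (AT5G43890). In 8 of them no library reached 1 FPKM. The exception was IAA32, at 1.02 FPKM in tic-2 predawn C. These 9 did not pass the filter of 1 FPKM in at least 3 libraries and were not tested, which left 31. Of the 5 Aux/IAA genes with no degron core, 4 were among these 9, and IAA30 (AT3G62100) reached at most 1.60 FPKM in a library.

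**Figure D1:**
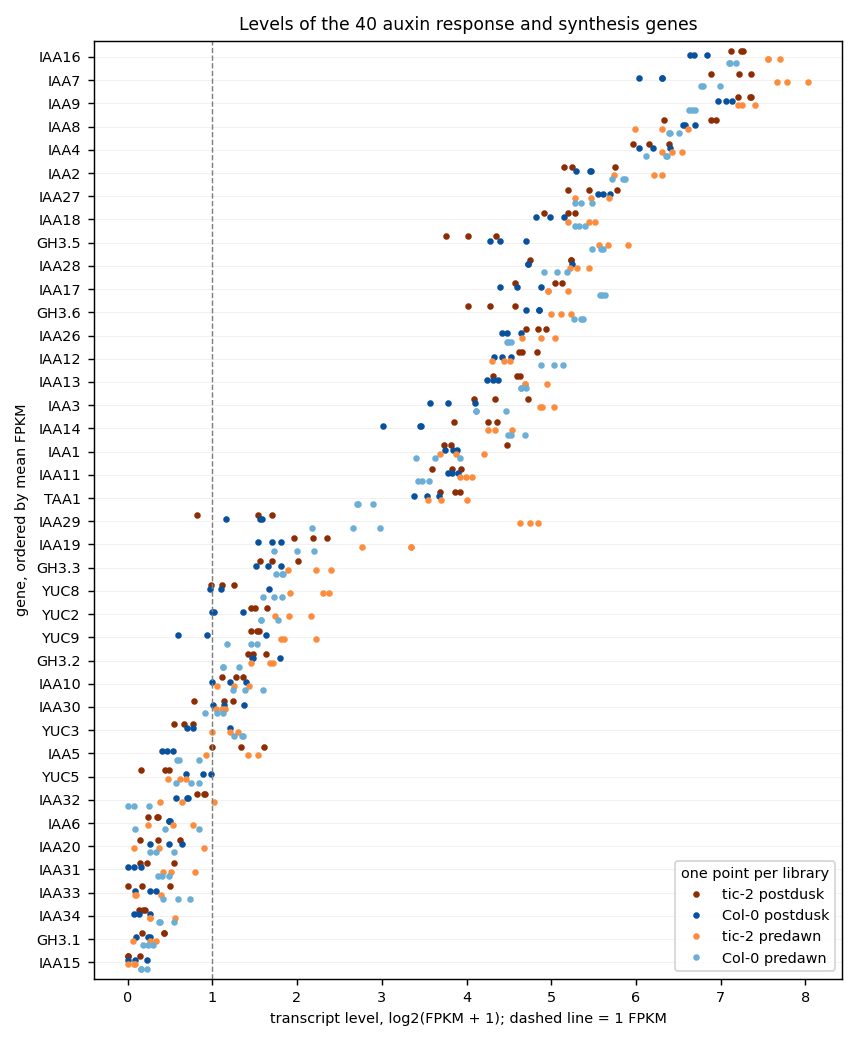
Transcript level, as log2(FPKM + 1), of each of the 40 genes in the 12 libraries, 1 point per library, genes ordered by mean FPKM and coloured by group. The dashed line marks 1 FPKM, and IAA16, IAA7 and IAA9 stand at the top, with means of 146, 140 and 136 FPKM.

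Before dawn the summed Aux/IAA transcript pool was larger in tic-2 than in Col-0. It was 1103, 1189 and 1185 FPKM in tic-2 libraries A, B and C, against 882, 911 and 862 FPKM in Col-0. The ranges did not overlap. Among the abundant genes the mean of IAA7 was 227.5 FPKM in tic-2 and 114.6 in Col-0, that of IAA9 155.3 and 100.1, and that of IAA16 193.8 and 138.9. The ratio of means was larger for the less abundant IAA29 (AT4G32280). Of the 31 genes tested, 11 rose in tic-2 at predawn, where 13.1% of all 19274 genes tested rose, and 2 fell, where 14.6% of all did. By class 9 rose and 2 fell of 22 Aux/IAA genes, 1 rose of 4 GH3 genes, and 1 rose of 5 synthesis genes. Without IAA5 (AT1G15580), which passed the filter through tic-2 libraries alone, 10 of 30 rose, 8 of them Aux/IAA genes. The median log2 fold change of the 31 was 0.27, beside -0.03 for all genes tested. Fold changes and tests are on the scale of log2(FPKM + 1), which shrinks the change of a gene at low FPKM, while a ratio of means is taken from FPKM itself. A gene was called at a limma adjusted p under 0.05.

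IAA29, whose transcript accumulates under shade, had 27.7, 23.8 and 25.95 FPKM in tic-2 at predawn, against 5.33, 6.86 and 3.54 FPKM in Col-0. All tic-2 libraries stood far above all Col-0 libraries. The ratio of means was 4.93 and the log2 fold change 2.14 (SE 0.24, limma adjusted p = 4.81e-05). IAA19 (AT3G15540), known as MSG2 and needed for tropic bending of the hypocotyl, had 5.82, 9.195 and 9.18 FPKM in tic-2, against 3.58, 3.005 and 2.32 FPKM in Col-0. The groups did not overlap, and tic-2 library A was lower than the other tic-2 libraries. Its ratio of means was 2.72 and its log2 fold change 1.18 (SE 0.18, limma adjusted p = 0.00043).

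IAA7, known as AXR2, whose stabilised form blocks auxin response in hypocotyls and roots, had 202, 219 and 261 FPKM in tic-2 at predawn, against 108, 126 and 110 FPKM in Col-0. Every tic-2 library exceeded every Col-0 library, with a ratio of means of 1.98 (log2 fold change 0.98, SE 0.14, limma adjusted p = 0.000301). IAA16 had 187, 207 and 187 FPKM in tic-2, against 137, 136 and 144 FPKM in Col-0. The 3 libraries of each genotype lay close together, and the difference was 0.48 on the log2 scale (SE 0.08, limma adjusted p = 0.00137). IAA9 had 146, 151 and 169 FPKM in tic-2, against 103, 97.7 and 100.1 FPKM in Col-0. Again the groups stood apart (log2 fold change 0.63, SE 0.09, limma adjusted p = 0.000244).

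IAA3 (AT1G04240), known as SHY2, which restrains cell division in the root meristem, had 28.6, 31.9 and 28.2 FPKM in tic-2 at predawn, against 16.2, 21.1 and 16.3 FPKM in Col-0. The groups did not overlap (log2 fold change 0.70, SE 0.17, limma adjusted p = 0.01). IAA3 shares 640 bases with AT1G04230 on the other strand. The kit was directional, but whether counting used strand is not given, so reads of the 2 genes cannot be told apart; AT1G04230 was lower in tic-2, at 5.405 ± 0.4035 FPKM against 7.29 ± 0.644 in Col-0 (SD, n = 3, limma adjusted p = 0.0255). IAA11 (AT4G28640) had 14.1, 14.9 and 15.8 FPKM in tic-2, against 9.73, 10.8 and 10.1 FPKM in Col-0. Its groups were clearly separate (log2 fold change 0.51, SE 0.10, limma adjusted p = 0.00221). IAA26 (AT3G16500) had 24.2, 31.9 and 28.5 FPKM in tic-2, against 21.3, 22.1 and 21.4 FPKM in Col-0. Here the tic-2 libraries were spread out and the lowest came close to Col-0 (log2 fold change 0.36, SE 0.11, limma adjusted p = 0.0261), and the call was lost in 5 of 22 alternatives, without any Col-0 predawn library (limma adjusted p 0.0717 without A, 0.062 without B, 0.0764 without C), without tic-2 predawn B (0.108) and without tic-2 predawn C (0.0578).

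The low gene IAA5 had 1.90, 0.8998 and 1.68 FPKM in tic-2 at predawn, against 0.5003, 0.7905 and 0.522 FPKM in Col-0. The lowest tic-2 library was close to the highest Col-0 library. Its log2 fold change was 0.62 (SE 0.19, limma adjusted p = 0.0295), but IAA5 passed the filter through 4 tic-2 libraries alone and so had to differ. Its call was also lost with array weights (limma adjusted p = 0.0764), and when a single predawn library was left out: tic-2 A (0.0932), tic-2 C (0.0886), Col-0 A (0.0903) and Col-0 C (0.0913).

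Outside the Aux/IAA family, TAA1, the first enzyme of the main auxin synthesis route, had 10.7, 11.97 and 15.1 FPKM in tic-2 at predawn, against 5.55, 6.415 and 5.56 FPKM in Col-0. The tic-2 libraries were all above the Col-0 libraries, by a ratio of means of 2.15 (log2 fold change 0.98, SE 0.13, limma adjusted p = 0.000159). GH3.2 (AT4G37390) had 2.20, 1.735 and 2.27 FPKM in tic-2, against 1.49, 1.19 and 1.17 FPKM in Col-0. The groups were separate but near each other (log2 fold change 0.43, SE 0.13, limma adjusted p = 0.0293). That call was lost in 6 of 22 alternatives, by leaving out tic-2 predawn A (limma adjusted p = 0.072), tic-2 predawn C (0.0833), both tic-2 libraries lettered C (0.0741), Col-0 predawn B (0.0949) or Col-0 predawn C (0.0969), and with a replicate block.

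Opposite to these, 2 Aux/IAA genes fell in tic-2 at predawn. IAA12 (AT1G04550), known as BDL, which acts with the factor MONOPTEROS in the embryonic root, had 20.7, 21.8 and 18.8 FPKM in tic-2, against 31.8, 34.1 and 28.4 FPKM in Col-0. The tic-2 libraries were all below the Col-0 libraries (log2 fold change -0.60, SE 0.10, limma adjusted p = 0.000859). IAA17 (AT1G04250), known as AXR3, had 30.3, 35.6 and 30.1 FPKM in tic-2, against 46.8, 47.4 and 48.9 FPKM in Col-0. The groups were wide apart (log2 fold change -0.57, SE 0.15, limma adjusted p = 0.0157), and the call was lost without Col-0 predawn C (limma adjusted p = 0.053). IAA3, which rose, and IAA17, which fell, lie head to head on chromosome 1 with 6388 bases between them and no other protein-coding gene.

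Several synthesis and conjugation genes stood apart by genotype at predawn without a call. YUC8 averaged 3.63 ± 0.748 FPKM in tic-2 and 2.29 ± 0.248 in Col-0 (SD, n = 3, limma adjusted p = 0.0694), and YUC9 2.93 ± 0.651 in tic-2 and 1.63 ± 0.335 in Col-0 (limma adjusted p = 0.0763). The YUC8 and YUC9 libraries did not overlap between genotypes, and the 95% intervals of their log2 fold changes were 0.09 to 0.88 and 0.09 to 1.07. Each was called in 6 of 22 alternatives, among them the fit without Col-0 postdusk B (limma adjusted p = 0.0263 and 0.0171). That library is not part of the predawn comparison, and the log2 fold changes stayed at 0.49 and 0.58. GH3.3 (AT2G23170) was at 3.55 ± 0.793 FPKM in tic-2 and 2.49 ± 0.104 in Col-0 (limma adjusted p = 0.0977).

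**Figure D2:**
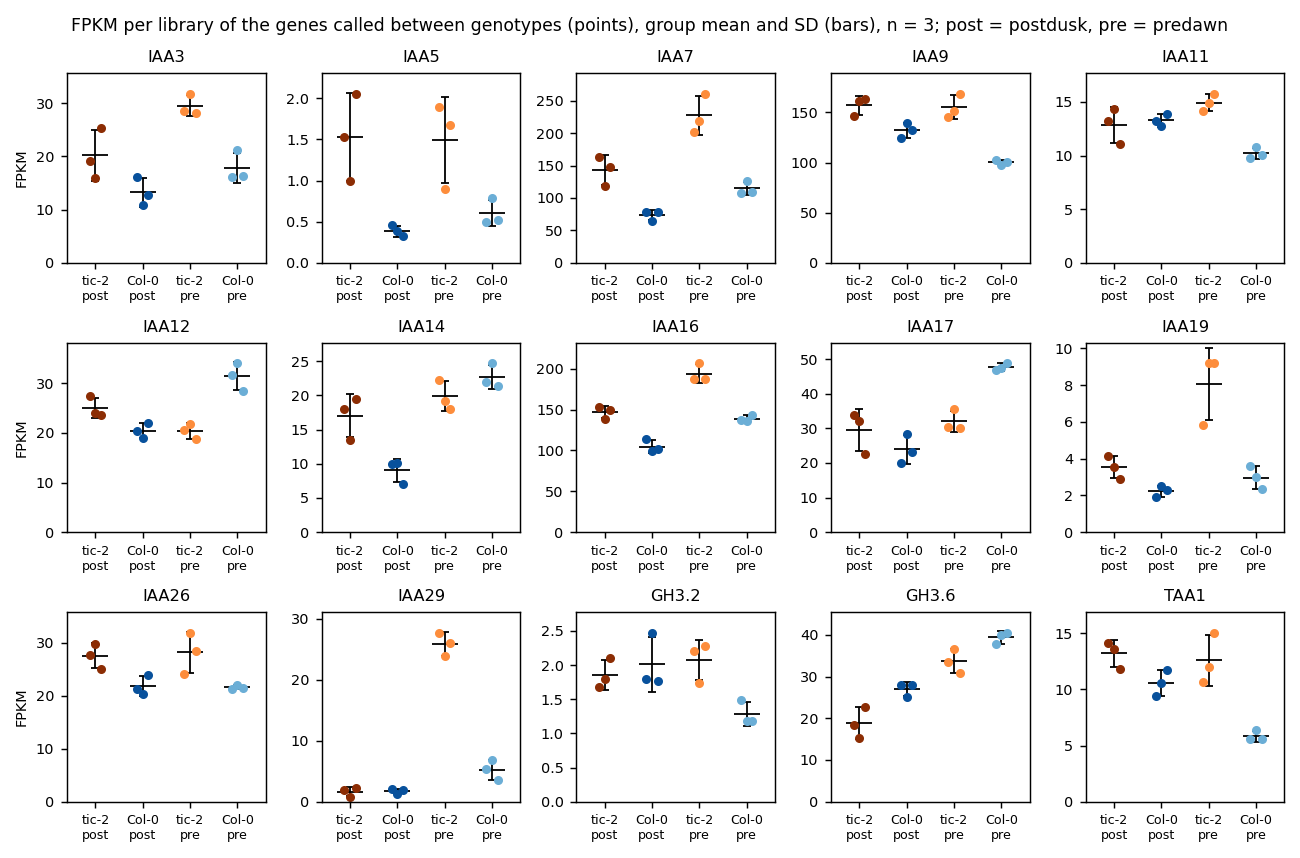
FPKM per library of the 15 genes called between genotypes at either time or in the difference between times, with the group mean and SD (n = 3), tic-2 left of Col-0 at postdusk and then at predawn. IAA29 stands at 23.8 to 27.7 FPKM in tic-2 at predawn and at 6.86 FPKM or less in the other groups.

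At postdusk the Aux/IAA pool was again larger in tic-2, at 1008, 943 and 925 FPKM in libraries A, B and C, against 792, 765 and 761 FPKM in Col-0. No tic-2 library reached down to a Col-0 library. Of the 31 genes tested, 7 rose, where 9.71% of all genes did, and 1 fell, where 19.8% of all did. All 7 were Aux/IAA genes, and the 1 that fell was GH3.6. Their median log2 fold change was 0.18, beside -0.12 for all genes, a difference of 0.30 as at predawn. The shift of all genes at postdusk depends on scaling: it was -0.01 after median-of-ratios rescaling, when 12 of the 31 rose and 0 fell, and -0.04 after quantile normalization, when 12 rose. Over all 19274 genes tested, 1872 rose and 3814 fell as deposited. After the rescaling 2490 rose and 1871 fell, and after quantile normalization 2336 rose and 2275 fell. Higher calls were 32.9% of all calls as deposited, 57.1% after the rescaling and 50.7% after quantile normalization. Of the 7 that rose at postdusk, 6 (IAA3, IAA5, IAA7, IAA9, IAA16 and IAA26) were among the 11 that rose at predawn. The comparisons use different libraries but were fitted together with a shared estimate of the spread, so they are not independent. The same overlap over all genes was not counted. Without IAA5, 6 of 30 rose at postdusk, and 5 of these were among the 10 that rose at predawn.

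IAA7 had 163, 118 and 148 FPKM in tic-2 at postdusk, against 78.5, 64.65 and 78.45 FPKM in Col-0. The groups were far apart, with a ratio of means of 1.94 (log2 fold change 0.94, SE 0.14, limma adjusted p = 0.000811). IAA16 had 153, 138 and 149.6 FPKM in tic-2, against 113, 98.8 and 102 FPKM in Col-0. All tic-2 libraries were higher (log2 fold change 0.49, SE 0.08, limma adjusted p = 0.00204). For IAA7 and IAA16 the fold at postdusk was close to that at predawn, and the difference between times was -0.04 (95% interval -0.47 to 0.39) for IAA7 and 0.01 (95% interval -0.25 to 0.27) for IAA16.

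IAA14 (AT4G14550), known as SLR, which blocks lateral root initiation when stabilised, had 18.0, 13.5 and 19.5 FPKM in tic-2 at postdusk, against 9.96, 10.0 and 7.08 FPKM in Col-0. All tic-2 libraries were above all Col-0 libraries (ratio of means 1.88, log2 fold change 0.84, SE 0.15, limma adjusted p = 0.00248). IAA5 had 1.53, 0.9975 and 2.06 FPKM in tic-2, against 0.453, 0.382 and 0.319 FPKM in Col-0. The groups did not overlap, and the log2 fold change was 0.85 (SE 0.19, limma adjusted p = 0.00703), again with the filter passed through tic-2 alone.

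IAA3 had 19.2, 16.02 and 25.4 FPKM in tic-2 at postdusk, against 16.2, 10.8 and 12.8 FPKM in Col-0. The lowest tic-2 library lay just below the highest Col-0 library (log2 fold change 0.57, SE 0.17, limma adjusted p = 0.0293). The call was lost in 6 of 22 alternatives: by leaving out tic-2 postdusk A (limma adjusted p = 0.0606), tic-2 postdusk C (0.0943), both tic-2 libraries lettered C (0.0916), Col-0 postdusk B (0.108) or Col-0 postdusk C (0.0768), and when only the 2 groups were fitted (0.0727). AT1G04230, which overlaps it, was lower in tic-2 at postdusk too, at 5.26 ± 0.608 FPKM against 7.22 ± 0.797 in Col-0 (SD, n = 3, limma adjusted p = 0.0204).

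IAA26 had 27.8, 29.7 and 25.1 FPKM in tic-2 at postdusk, against 21.2, 20.4 and 24.0 FPKM in Col-0. IAA9 had 146, 162 and 163 FPKM in tic-2, against 124, 139.7 and 132 FPKM in Col-0. In both genes the groups were separate but close. Their calls were weak: the log2 fold change was 0.32 (SE 0.11, limma adjusted p = 0.0437) for IAA26 and 0.25 (SE 0.09, limma adjusted p = 0.0492) for IAA9. The IAA26 call was lost in 10 of 22 alternatives (limma adjusted p up to 0.134), among them whenever 1 library was left out of tic-2 postdusk A and B, Col-0 postdusk A and B, or Col-0 predawn A, B and C. The IAA9 call was lost in 12 of 22 (up to 0.161), among them whenever 1 library of Col-0 at either time, 1 of tic-2 at postdusk, or tic-2 predawn B was left out.

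GH3.6, known as DFL1, whose overexpression shortens hypocotyls in light, had 18.4, 15.2 and 22.8 FPKM in tic-2 at postdusk, against 27.9, 25.1 and 27.9 FPKM in Col-0. Every tic-2 library was below every Col-0 library (log2 fold change -0.51, SE 0.12, limma adjusted p = 0.0104). Relative to the median of all genes the change was -0.39, and the call was lost after median-of-ratios rescaling (limma adjusted p = 0.052). GH3.5, at 15.7 ± 3.44 FPKM in tic-2 and 21.1 ± 3.51 in Col-0 (SD, n = 3), was not called (limma adjusted p = 0.0606). The summed GH3 level was 37.3, 32.2 and 47.6 FPKM in tic-2, against 56.75, 48.2 and 52.25 FPKM in Col-0.

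Near the threshold at postdusk, YUC2 was at 1.90 ± 0.203 FPKM in tic-2 and 1.20 ± 0.324 in Col-0 (SD, n = 3, limma adjusted p = 0.0501), and IAA19 at 3.53 ± 0.608 in tic-2 and 2.23 ± 0.307 in Col-0 (limma adjusted p = 0.0584). The IAA19 difference was called in 8 of 22 alternatives, with both rescalings among them, and the YUC2 difference in 7. TAA1 was at 13.2 ± 1.21 FPKM in tic-2 and 10.6 ± 1.17 in Col-0 (limma adjusted p = 0.101, log2 fold change 0.29, 95% interval 0.02 to 0.57).

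The tic-2 effect differed between the times for 6 genes, tested as the effect at postdusk minus the effect at predawn. In 3 the difference was positive, where 7.28% of all genes were so called, and in 3 it was negative, where 8.59% were; each is 9.68% of the 31, a share near that of all genes. The share of positive calls was 45.9% of all calls as deposited, 60.4% after median-of-ratios rescaling and 57.7% after quantile normalization.

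IAA29 held the largest difference. It had 1.91, 0.769 and 2.26 FPKM in tic-2 at postdusk, against 2.01, 1.24 and 1.94 FPKM in Col-0. These groups overlapped, where those at predawn were far apart, and the effect was -0.08 at postdusk and 2.14 at predawn (difference -2.22, SE 0.34, limma adjusted p = 0.000725). IAA11 had 13.2, 14.3 and 11.04 FPKM in tic-2 at postdusk, against 13.2, 12.7 and 13.9 FPKM in Col-0. The genotypes overlapped, and the effect was -0.05 at postdusk and 0.51 at predawn (difference -0.56, SE 0.14, limma adjusted p = 0.0168). TAA1 had 14.2, 13.6 and 11.85 FPKM in tic-2 at postdusk, against 9.44, 10.6 and 11.78 FPKM in Col-0. The groups did not overlap, but the lowest tic-2 library was barely above the highest Col-0 library, and the effect was 0.29 at postdusk and 0.98 at predawn (difference -0.69, SE 0.18, limma adjusted p = 0.0226). That call was lost without Col-0 predawn A (limma adjusted p = 0.0553) or C (0.0591) or Col-0 postdusk C (0.0575).

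IAA12, IAA14 and IAA17 went the other way. IAA12 had 27.4, 24.1 and 23.6 FPKM in tic-2 at postdusk, against 20.4, 19.0 and 22.0 FPKM in Col-0. The tic-2 libraries were above Col-0 at postdusk and below it at predawn, with effects of 0.28 and -0.60 (difference 0.87, SE 0.14, limma adjusted p = 0.00112); the postdusk effect by itself was not called (limma adjusted p = 0.0532). IAA17 had 34.0, 32.0 and 22.7 FPKM in tic-2 at postdusk, against 20.1, 28.4 and 23.2 FPKM in Col-0. These overlapped, and the effect was 0.29 at postdusk and -0.57 at predawn (difference 0.86, SE 0.21, limma adjusted p = 0.0181). IAA14 had 22.3, 19.2 and 18.1 FPKM in tic-2 at predawn, against 22.0, 24.7 and 21.4 FPKM in Col-0. The predawn groups overlapped, and the effect was 0.84 at postdusk and -0.19 at predawn (difference 1.03, SE 0.22, limma adjusted p = 0.00671). For IAA9 and IAA19 the differences, -0.38 and -0.69, were not called (limma adjusted p = 0.0578 and 0.0868).

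**Figure D3:**
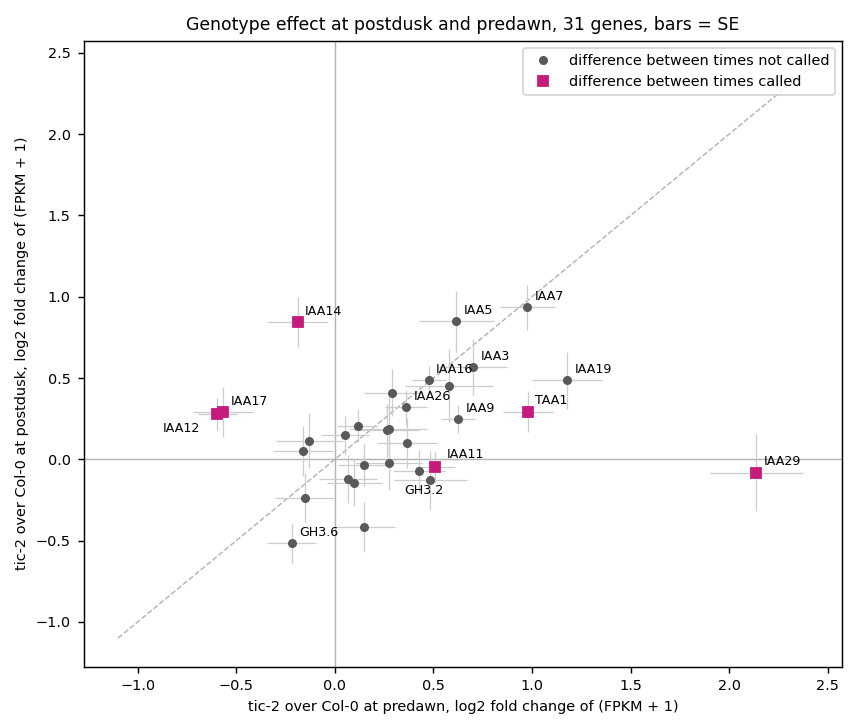
Log2 fold change of tic-2 over Col-0 at postdusk (vertical) against that at predawn (horizontal) for the 31 genes tested, with SE bars; squares mark the 6 genes whose difference between times was called, and the dashed line marks equal effects. IAA7, at 0.94 and 0.98, lies near the line, and IAA29, at -0.08 and 2.14, lies far below it.

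Time of day moved more of these genes downward than upward from predawn to postdusk. In tic-2, 1 gene was higher at postdusk, where 18.5% of all genes were, and 11 were lower, where 19.4% of all were. In Col-0, 4 were higher, where 22.7% of all genes were, and 12 were lower, where 14.4% of all were. The median log2 fold change of the 31 was -0.25 in tic-2 and -0.33 in Col-0, beside -0.05 and 0.05 for all genes. Over all genes, higher calls in Col-0 were 61.1% of calls as deposited, 52.3% after median-of-ratios rescaling and 50.1% after quantile normalization. Of the genes lower at postdusk, 7 were shared (IAA7, IAA16, IAA29, GH3.5, GH3.6, YUC2 and YUC3), which is 7 of 11 in tic-2 and 7 of 12 in Col-0. YUC3, counted in each of these, reached 1 FPKM in 6 libraries, all of predawn except Col-0 postdusk B (1.317 FPKM). It passed the filter mainly through predawn, so its calls as lower at postdusk were favoured by the filter. The number shared over all genes was not counted. Organ markers moved by time as well, and their part in these counts was not tested. Of 8 root markers tested, CASP1 and TIP2;3 were lower at postdusk in tic-2 and TIP2;3 in Col-0. Of 9 shoot markers tested, AS1 and YAB5 were higher and YAB1 lower at postdusk in both genotypes, and KAN1 was higher in Col-0.

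GH3.5 and IAA29 fell most in tic-2 from predawn to postdusk. GH3.5 had 15.1, 12.6 and 19.4 FPKM in tic-2 at postdusk, against 46.2, 58.9 and 49.7 FPKM in tic-2 at predawn. In Col-0 it had 25.05, 18.3 and 20.0 FPKM at postdusk, against 47.1, 47.9 and 43.6 FPKM at predawn. Times were fully separate in both genotypes, with log2 fold changes of -1.67 in tic-2 and -1.105 in Col-0 (SE 0.15 each, limma adjusted p = 6.37e-06 and 0.000152). IAA29 averaged 1.64 ± 0.778 FPKM in tic-2 at postdusk and 25.8 ± 1.96 at predawn, and in Col-0 1.73 ± 0.426 at postdusk and 5.24 ± 1.66 at predawn (SD, n = 3). Both falls were called (limma adjusted p = 8.1e-07 in tic-2 and 0.00217 in Col-0). GH3.6 fell in both genotypes, by 0.82 in tic-2 and 0.53 in Col-0 on the log2 scale.

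The low YUC2 and YUC3 genes were lower at postdusk too. YUC2 was at 1.90 ± 0.203 FPKM at postdusk and 2.85 ± 0.583 at predawn in tic-2, and at 1.20 ± 0.324 and 2.13 ± 0.263 in Col-0 (SD, n = 3). YUC3 was at 0.582 ± 0.1203 FPKM at postdusk and 1.26 ± 0.244 at predawn in tic-2, and at 0.882 ± 0.379 and 1.504 ± 0.0975 in Col-0. All 4 falls were called but were near the threshold (limma adjusted p = 0.0468 and 0.0194 in tic-2, 0.014 and 0.0436 in Col-0), and each was lost when single libraries were left out. In tic-2 the YUC2 call was lost in 16 of 22 alternatives (limma adjusted p up to 0.199, with array weights), and the YUC3 call without the tic-2 libraries A (0.0503) or B (0.0744) of predawn or A of postdusk (0.0661). In Col-0 the YUC2 call was lost without Col-0 predawn B (0.0608), Col-0 postdusk A (0.0517) or Col-0 postdusk B (0.0508), and the YUC3 call in 12 of 22 alternatives (up to 0.154, without Col-0 postdusk A). YUC8 was called in tic-2, at 1.18 ± 0.201 FPKM at postdusk and 3.63 ± 0.748 at predawn (limma adjusted p = 0.000648), and not in Col-0 (limma adjusted p = 0.0652); the difference between the genotypes was not called (limma adjusted p = 0.137). Col-0 postdusk B, the library with the most root marker transcript of its group, was at 2.18 FPKM for YUC8, against 0.962 in A and 1.15 in C, and at 2.11 for YUC9, against 0.9196 in A and 0.514 in C. Without that library YUC8 was called by time in Col-0 (limma adjusted p = 0.00732), and YUC9 between genotypes at postdusk (0.0138) and by time in tic-2 (0.0385) and Col-0 (0.0177). The log2 fold change of YUC9 in tic-2 stayed at -0.45, since a Col-0 library enters it only through the shared fit. Whether root content bears on these values was not tested. IAA2 (AT3G23030) was at 41.5 ± 10.1 FPKM at postdusk and 67.9 ± 13.5 at predawn in tic-2, a fall of the same kind (limma adjusted p = 0.006), as were those of IAA3 and IAA19. The IAA3 fall was lost without the tic-2 libraries B of predawn (limma adjusted p = 0.0848) or A (0.0702) or B (0.1) of postdusk.

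In Col-0 IAA14 and IAA17 were among the Aux/IAA genes with the strongest change by time. IAA14 averaged 9.03 ± 1.69 FPKM at postdusk and 22.7 ± 1.76 at predawn in Col-0, a log2 fold change of -1.25 (limma adjusted p = 5.58e-05). In tic-2 it averaged 17.0 ± 3.15 FPKM at postdusk and 19.9 ± 2.19 at predawn (SD, n = 3), a log2 fold change of -0.22 that was not called. IAA17 averaged 23.9 ± 4.20 FPKM at postdusk and 47.7 ± 1.05 at predawn in Col-0 (log2 fold change -0.98, limma adjusted p = 0.000342), and 29.6 ± 6.01 at postdusk and 32.0 ± 3.13 at predawn in tic-2, where no change was called. IAA12 fell in Col-0 at postdusk, to 20.5 ± 1.52 FPKM against 31.4 ± 2.84 at predawn, and rose in tic-2, to 25.06 ± 2.075 against 20.4 ± 1.55, though that rise was lost in 9 of 22 alternatives (limma adjusted p up to 0.153). The difference between genotypes was called for all 3 genes, as given above.

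TAA1, IAA11, IAA9 and GH3.2 were higher at postdusk in Col-0, and none of them was called in tic-2. TAA1 averaged 10.6 ± 1.17 FPKM at postdusk and 5.84 ± 0.494 at predawn in Col-0 (log2 fold change 0.76, limma adjusted p = 0.000593), and 13.2 ± 1.21 at postdusk and 12.6 ± 2.24 at predawn in tic-2. All tic-2 libraries, at either time, stood at or above 10.7 FPKM, and the Col-0 libraries at predawn at or below 6.415 FPKM. The difference was called for TAA1 and IAA11 and not for IAA9 (limma adjusted p = 0.0578) or GH3.2 (0.0944). IAA13 (AT2G33310) and IAA18 (AT1G51950) were lower at postdusk in Col-0 by 0.36 and 0.35 on the log2 scale. Of these Col-0 calls, that of IAA11 was lost without Col-0 predawn A (limma adjusted p = 0.0539) or Col-0 postdusk C (0.0569), that of IAA13 without Col-0 predawn B (0.059) or Col-0 postdusk A (0.0617), and that of IAA18 without any single Col-0 library but postdusk A (0.0649 to 0.141). The GH3.2 call was lost in 6 of 22 alternatives, among them median-of-ratios rescaling (0.056) and quantile normalization (0.0786). In total 22 of the 31 genes were called in at least 1 of the 5 comparisons, and 9 in none: IAA1 (AT4G14560), IAA4, IAA8, IAA10 (AT1G04100), IAA27 (AT4G29080), IAA28 (AT5G25890), IAA30, GH3.3 and YUC9. How many of all genes were called in at least 1 comparison was not counted, so the 22 are no trait of this family. By time in tic-2 alone, 18.5% of all genes were called higher and 19.4% lower.

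**Figure D4:**
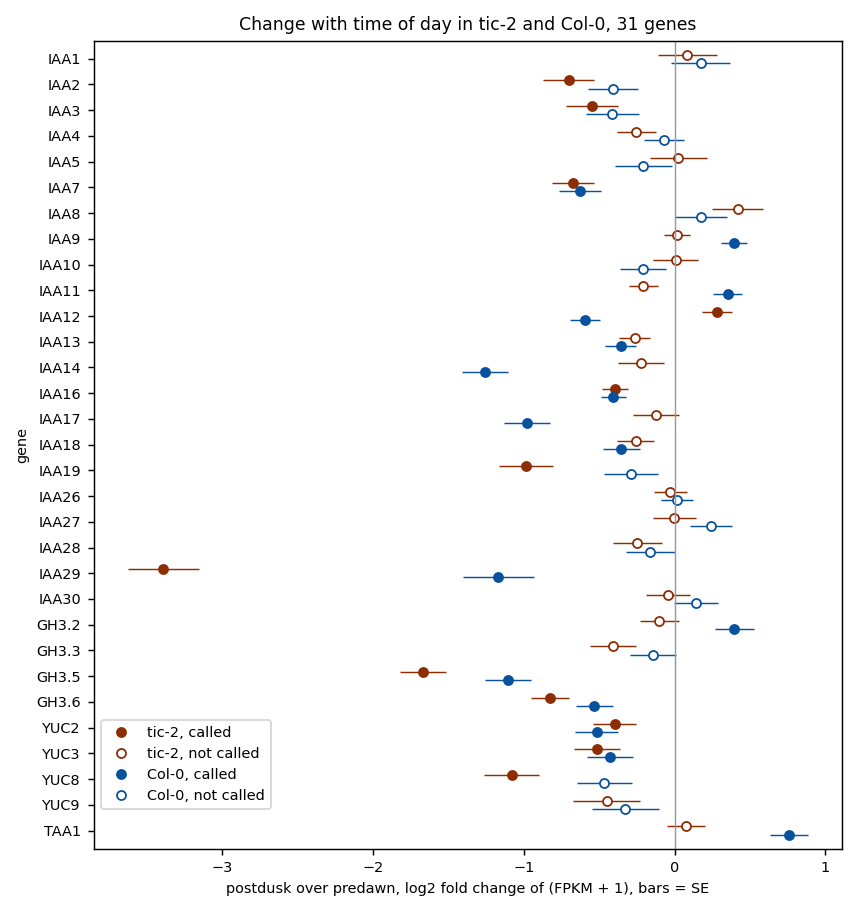
Log2 fold change of postdusk over predawn in tic-2 and in Col-0 for the 31 genes tested, with SE bars; filled points were called at a limma adjusted p under 0.05. IAA14 stands at -0.22 in tic-2 and -1.25 in Col-0, and IAA29 at -3.39 in tic-2 and -1.17 in Col-0.

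Other genes of the pathway, on 7 lists with 71 genes, were called in either direction between genotypes, and the counts below are over those tested. Among all genes tested 13.1% rose and 14.6% fell at predawn, and 9.71% rose and 19.8% fell at postdusk; with so few genes on a list, the counts are a description and single nothing out. Of the 6 TIR1/AFB receptor genes, 0 were called at predawn, and 1, AFB4 (AT4G24390), fell in tic-2 at postdusk, to 5.05 ± 0.263 FPKM against 7.14 ± 0.604 in Col-0 (SD, n = 3, limma adjusted p = 0.00725). Of 15 ARF genes, 2 rose and 1 fell at predawn, shares near or below those of all genes: ARF6 (AT1G30330) was at 21.2 ± 1.46 FPKM in tic-2 and 14.1 ± 1.45 in Col-0, ARF16 (AT4G30080) at 13.2 ± 0.809 in tic-2 and 10.1 ± 1.32 in Col-0, and ARF8 (AT5G37020) at 13.3 ± 1.002 in tic-2 and 20.7 ± 1.997 in Col-0. ARF6 and ARF8, close relatives that promote hypocotyl elongation, thus moved in opposite directions. At postdusk only ARF10 (AT2G28350) was called among the ARF genes, at 14.9 ± 0.907 FPKM in tic-2 and 8.75 ± 0.277 in Col-0. Among 5 genes for TOPLESS corepressors, which Aux/IAA proteins recruit, 1 rose and 1 fell at each time. TPR1 (AT1G80490) rose at predawn, with 19.47 ± 0.3986 FPKM in tic-2 and 14.97 ± 0.2034 in Col-0, and TPL (AT1G15750) at postdusk, with 62.93 ± 2.961 in tic-2 and 49.42 ± 2.307 in Col-0. TPR3 (AT5G27030) fell at both, with 3.848 ± 0.4619 FPKM in tic-2 and 5.005 ± 0.2693 in Col-0 at predawn, and 5.217 ± 0.5084 in tic-2 and 7.526 ± 0.08635 in Col-0 at postdusk.

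Of 11 auxin transport genes 4 rose in tic-2 at predawn and 2 at postdusk, and 0 fell, beside the shares of all genes just given. The influx carrier gene LAX1 (AT5G01240) was at 49.9 ± 3.396 FPKM in tic-2 and 24.2 ± 1.93 in Col-0 at predawn, AUX1 (AT2G38120) at 83.6 ± 21.3 in tic-2 and 53.0 ± 2.80 in Col-0, and LAX3 (AT1G77690) at 25.5 ± 3.36 in tic-2 and 16.05 ± 1.557 in Col-0 (SD, n = 3, limma adjusted p = 0.000177, 0.0112 and 0.00693). The efflux carrier gene PIN3 (AT1G70940) was at 80.0 ± 16.6 FPKM in tic-2 and 46.1 ± 6.96 in Col-0 at postdusk (limma adjusted p = 0.0025), and LAX3 at 19.65 ± 2.141 in tic-2 and 14.07 ± 3.051 in Col-0 (0.0324). In synthesis outside the 6 genes above, TAR2 (AT4G24670), a homologue of TAA1, fell in tic-2 at both times, to 2.317 ± 0.3872 FPKM against 4.054 ± 0.1161 in Col-0 at predawn and to 3.519 ± 0.4949 against 4.873 ± 0.5561 at postdusk, so that TAA1 and TAR2 had opposite signs at predawn. YUC6, the other gene of that list that passed the filter, was not called. Of 5 other conjugation and oxidation genes 1 rose at predawn and 2 at postdusk, GH3.9 (AT2G47750) at both and GH3.17 (AT1G28130) at postdusk. GH3.9 was at 4.643 ± 1.004 FPKM in tic-2 and 2.37 ± 0.1105 in Col-0 at predawn, and GH3.17 at 15.66 ± 1.683 in tic-2 and 10.06 ± 3.326 in Col-0 at postdusk. Of 18 SAUR genes, a family of small auxin-induced growth genes, 2 rose and 2 fell at predawn and 3 rose at postdusk. SAUR16 (AT4G38860) was at 25.2 ± 3.69 FPKM in tic-2 and 50.9 ± 7.33 in Col-0 at predawn, and at 13.02 ± 0.711 in tic-2 and 9.20 ± 2.45 in Col-0 at postdusk. SAUR14 (AT4G38840) was lower in tic-2 at predawn, at 62.75 ± 23.98 FPKM against 132.6 ± 13.89 in Col-0, and SAUR22 (AT5G18050) higher, at 6.799 ± 0.6385 against 2.423 ± 0.7401. At postdusk SAUR62 (AT1G29430) was at 12.4 ± 3.35 FPKM in tic-2 and 6.557 ± 0.1694 in Col-0, and SAUR10 (AT2G18010) at 1.161 ± 0.2678 in tic-2 and 0.3818 ± 0.1732 in Col-0. Like IAA5, SAUR10 passed the filter through 4 tic-2 libraries alone and so had to differ. SAUR19 to SAUR24 are near-identical copies and uncertain as separate genes. As context, PIF4 (AT2G43010), a growth-promoting bHLH factor, was at 79.7 ± 6.11 FPKM in tic-2 and 6.42 ± 0.756 in Col-0 at predawn (limma adjusted p = 1.72e-07), and at 30.47 ± 7.923 in tic-2 and 21.81 ± 4.591 in Col-0 at postdusk (0.0794). PIF5 was at 105.0 ± 15.85 FPKM in tic-2 and 67.0 ± 4.36 in Col-0 at predawn, and at 60.21 ± 12.12 in tic-2 and 27.75 ± 5.171 in Col-0 at postdusk. The photoreceptor gene PHYA was at 81.3 ± 12.98 FPKM in tic-2 and 33.4 ± 2.38 in Col-0 at predawn. At postdusk PHYA was at 21.43 ± 1.817 FPKM in tic-2 and 21.97 ± 0.5715 in Col-0. A link of these genes to the levels of IAA29 was not tested.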

How the data were processed

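The authors deposited 1 table of FPKM values (25729 genes, 12 libraries). The submitters' processing notes name TAIR10 as the build and edgeR, TopHat and TopHat2 as tools, with no versions or roles. How reads were counted and filtered, and with which strand setting, is not stated there. Columns went to groups by their own names, since descriptions and titles disagree for 6 samples. Read totals were recovered from the FPKM steps with exon lengths of TAIR10.1, whose annotation holds 25453 of the IDs, and 99.4% to 99.5% of values were whole within 0.05 reads. The table itself holds no coordinates, and those printed are of TAIR10.1.

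With a pseudocount of 1, log2(FPKM + 1) was tested by limma (version 3.58.1, under R 4.3.3) with a mean-variance trend. Genes with at least 1 FPKM in at least 3 libraries were kept (19274 kept, 6455 removed). The 4 group means were fitted together over the 12 libraries (8 residual and 3.78 prior degrees of freedom). P-values were adjusted by Benjamini-Hochberg over all genes kept, with calls at 0.05. The fit was tested on simulated data. Every gene of the 40 was named, and those called between genotypes or in the difference between times got values per library; of each pathway list at most 3 called genes per genotype comparison were named, by smallest adjusted p. The members, lists and rules were chosen with earlier results of these data known. Degrons and motifs were read from the first numbered RefSeq isoform of each gene, with no test. Alternatives were pseudocounts of 0.1 and 5, no filter, a filter on the mean, 2 scalings, array weights, a replicate block, fits of only 2 groups, each library left out, and both tic-2 libraries lettered C left out, which had the highest TIC levels. Separate cultures are known only from the words biological replicates in the series text. YUC10, YUC11, TAR1 and GH3.4, which the pathway lists include, had no row in the table and were not analysed.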

Additional observations from a re-analysis of the deposited data

Results flagged for a closer look

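The tic-2 effect differed between postdusk and predawn in the test of that difference for 6 genes, given as postdusk minus predawn on the log2 scale. It was positive for 3 of 31 and negative for 3 of 31, beside 7.28% and 8.59% of all genes, so the number is near that over all genes. IAA29 had a difference of -2.22, with 1.64 ± 0.778 FPKM in tic-2 and 1.73 ± 0.426 in Col-0 at postdusk, and 25.8 ± 1.96 and 5.24 ± 1.66 at predawn (SD, n = 3). IAA14 had a difference of 1.03, IAA12 of 0.875 and IAA17 of 0.856. TAA1 had a difference of -0.685 and IAA11 of -0.558. What lies behind these differences was not tested.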

How the results depend on the processing

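No called gene changed sign under any alternative run. All alternatives in which the gene was tested kept 9 of 13 calls at predawn, 4 of 8 at postdusk, 5 of 6 in the difference between times, 8 of 12 for time in tic-2 and 10 of 16 for time in Col-0. IAA5, among the 4 at postdusk, was tested in only 21 alternatives. It did not pass the filter without both tic-2 libraries lettered C. With array weights the members called were 18 higher at predawn, 17 higher and 4 lower at postdusk, 5 positive and 12 negative in the difference, and 5 higher at postdusk within tic-2, while calls over all genes were 9532 at predawn, 10443 at postdusk, 7954 in the difference and 12164 for time in tic-2. Against those, the unweighted fit called 5334, 5686, 3060 and 7304. At postdusk 12 members were higher after either rescaling, 0 lower after median-of-ratios rescaling, 2 lower with no filter, and 11 higher and 2 lower without both tic-2 libraries lettered C. Without those libraries 6 differences were negative. Members higher at postdusk within tic-2 were 2 after median-of-ratios rescaling and 0 when only the 2 groups were fitted. Leaving out single libraries gave 1 to 2 members lower at predawn, 4 to 9 higher and 1 to 2 lower at postdusk, 2 to 5 negative differences and 0 to 2 higher at postdusk within tic-2. The cause was not tested.

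Whether the letters pair libraries across groups is not known. Deviations of same-lettered libraries from their own group means correlated at -0.33 to 0.21 between groups. Libraries of different letters were not compared in this way. With a replicate block on the letter, 11 members rose and 2 fell at predawn and 5 rose and 1 fell at postdusk. IAA9 and IAA26 at postdusk (limma adjusted p = 0.0551 and 0.0555) and GH3.2 at predawn (0.0535) were not called there. Genes near 1 FPKM rest on few reads, which limits IAA5, YUC3 and the 9 genes below the filter.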

Other observations

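Besides IAA3 and IAA17, which were called in opposite directions at predawn, 2 pairs of Aux/IAA genes stand side by side; the difference between neighbours was not tested. IAA2 and IAA7 lie head to head on chromosome 3 with 12510 bases and no other protein-coding gene between them. At predawn IAA7 rose in tic-2, while IAA2 was at 67.9 ± 13.5 FPKM in tic-2 and 55.2 ± 3.01 in Col-0 (SD, n = 3, limma adjusted p = 0.255). IAA14 and IAA1 lie in the same way on chromosome 4, 10732 bases apart. At postdusk IAA14 rose in tic-2, and IAA1 was at 15.5 ± 4.91 FPKM in tic-2 and 13.2 ± 0.708 in Col-0 (limma adjusted p = 0.5).

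By degron class, 8 of the 15 tested Aux/IAA genes with an intact core and 1 of the 6 tested with a variant rose in tic-2 at predawn, where 13.1% of all genes did, and 7 and 0 rose at postdusk, where 9.71% did. IAA5, which passed the filter through tic-2 alone, is among the 8 and the 7. Of the 5 without a core, IAA30 was tested and not called. By promoter motif, 3 of the 4 tested genes with a G-box rose at predawn, IAA7, IAA19 and GH3.2, and 3 of the 9 tested with a PBE-box. For the other motifs it was 3 of 9 with TGTCTC, 2 of 6 with TGTCGG and 1 of 2 with the evening element. Of all 31 tested genes 11 rose. IAA5 is among those with TGTCTC and with TGTCGG. These are counts over few genes, with no test.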
